A study of Mus musculus with 5 samples.

Results

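The genes described here make sterols and fatty acids, control that synthesis, or handle cholesterol that cells hold in excess. They were examined in CD11b+Gr1+ cells sorted from mouse lungs, a gate that takes granulocytes and monocytes together. The list holds 39 genes in 4 classes: 18 sterol enzymes, 6 regulators of the sterol response, 9 fatty acid enzymes and 6 genes of an efflux class. That class is named for cholesterol efflux, but not every gene in it exports cholesterol. A gene was measured where the platform's annotation gave a probe set that gene's symbol alone, and 34 of the 39 were measured, out of 14807 genes with such a probe set. Acat2, Idi1, Nr1h2 and Soat1 had no such probe set, and the probe set of Tm7sf2 is shared with Vps51, so these 5 were not analysed here. Among several probe sets of a gene, the one used is selected on the highest mean over the 5 arrays. Each of the 34 had 1 probe set, so no measured value decided the choice of probe set. The list itself was chosen with earlier results of these data known, so its counts and medians are descriptive.

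The tumour-challenged group (2 arrays) came from wild-type mice given 5000000 LLC-RFP cells under the skin and examined after 9 days. LLC-RFP is Lewis lung carcinoma, a mouse tumour line, here carrying a red fluorescent protein. The control group (3 arrays) came from wild-type mice without tumour. About 100000 cells were sorted per sample. The sources used here give no strain, sex or age and do not state whether a sample came from 1 mouse or a pool, so p-values measure only the spread between these samples. In bulk RNA of a mixed gate, fewer cells of a type and less RNA per cell cannot be told apart.

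Cholesterol is built from acetyl-CoA through mevalonate and squalene to lanosterol, which a chain of demethylations and reductions turns into cholesterol. The transcription factor SREBP2, encoded by Srebf2, switches on the genes of this route and of sterol uptake when membranes are poor in sterol. SCAP then escorts SREBP out of the endoplasmic reticulum, while the INSIG proteins hold it back when sterol is plentiful. SREBP1, from Srebf1, acts more on fatty acid synthesis, and the oxysterol receptors LXR turn on efflux genes such as Abca1 and Abcg1 when cells hold too much cholesterol. Myeloid cells use these routes for membrane growth and, in macrophages, for disposal of engulfed lipid.

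Promoter sequences are shown for 4 members with lower values after tumour challenge, since SREBP acts through short elements near the start of such genes. They are the 250 bases before the annotated start in RefSeq (GRCm38.p6), with capitals marking matches to TCACNCCAC (the core of a sterol regulatory element), CCAAT (the core bound by the partner factor NF-Y) or GGGCGG (a GC box), on either strand. Hmgcs1 lies at chr13:119690101-119690350 on the plus strand, Cyp51 at chr5:4104698-4104947 on the minus strand, Msmo1 at chr8:64733579-64733828 on the minus strand and Insig1 at chr5:28071162-28071411 on the plus strand. Each is written 5′ to 3′ on the strand of the gene.
Hmgcs1: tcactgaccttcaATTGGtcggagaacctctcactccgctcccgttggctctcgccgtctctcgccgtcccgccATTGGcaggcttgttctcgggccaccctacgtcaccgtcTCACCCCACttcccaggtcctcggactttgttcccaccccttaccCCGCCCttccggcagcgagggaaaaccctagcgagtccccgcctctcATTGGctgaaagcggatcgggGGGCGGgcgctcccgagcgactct
Cyp51: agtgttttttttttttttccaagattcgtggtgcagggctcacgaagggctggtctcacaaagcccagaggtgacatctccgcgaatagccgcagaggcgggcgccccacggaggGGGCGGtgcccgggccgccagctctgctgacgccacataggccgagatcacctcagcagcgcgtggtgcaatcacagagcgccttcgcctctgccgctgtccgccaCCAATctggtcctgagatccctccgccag
Msmo1: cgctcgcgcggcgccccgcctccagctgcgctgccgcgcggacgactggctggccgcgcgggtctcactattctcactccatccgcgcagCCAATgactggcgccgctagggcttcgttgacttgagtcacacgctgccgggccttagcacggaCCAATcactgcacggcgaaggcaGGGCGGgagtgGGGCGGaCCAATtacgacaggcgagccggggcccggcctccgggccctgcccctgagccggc
Insig1: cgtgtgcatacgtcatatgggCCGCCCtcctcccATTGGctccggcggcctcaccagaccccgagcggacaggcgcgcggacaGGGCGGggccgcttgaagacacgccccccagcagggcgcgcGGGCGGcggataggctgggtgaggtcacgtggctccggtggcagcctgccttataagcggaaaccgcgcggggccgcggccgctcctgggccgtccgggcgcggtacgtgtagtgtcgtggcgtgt

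Only the Hmgcs1 window of these 4 matched the letters searched for the sterol element, as TCACCCCAC from 137 to 129 bases before the start. That window also held 3 CCAAT matches and 2 GC boxes. Cyp51 had 1 CCAAT and 1 GC box, Msmo1 had 3 CCAAT and 2 GC boxes, and Insig1 had 1 CCAAT and 3 GC boxes. No marked matches overlap. Promoter entries existed for 31 of the 39 listed genes. The sterol element's letters were found in 1 of the 31 (3.23%), against 1.2% of 17492 protein-coding genes. CCAAT was found in 22 of 31 (71.0%, against 39.5% of protein-coding genes) and the GC box in 23 of 31 (74.2%, against 45.8%). A match describes letters in the window and is not a shown binding site. Only these exact letters were searched, so a window without a match is not shown to lack a sterol element.

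Values are log2 expression values after RMA, an array method that subtracts background, equalises the arrays and summarises the probes of a set. Array medians lay between 6.85 and 6.88 in tumour-challenged samples and between 6.77 and 6.88 in controls. Upper quartiles lay between 7.96 and 8.23 in tumour-challenged samples and between 7.90 and 8.09 in controls. In the deposited values the arrays were thus not fully equalised at the upper quartile. A level is called background here when a group mean is at or under 6.89, the 95th percentile of 834 probe sets of olfactory, vomeronasal and taste receptors. Of the 34 members 24 were above it in both groups. The sorted population's markers were bright, with Itgam (CD11b) at 11.11 and 10.81 in tumour-challenged samples and at 10.91, 10.81 and 10.60 in controls.

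Of the 34 members 10 had both tumour-challenged arrays below all control arrays, against 7.83% of all probe sets, and 5 had both above, against 11.2% of all probe sets. The 10 were 7 sterol enzymes (Sqle, Cyp51, Msmo1, Hmgcs1, Fdft1, Hsd17b7 and Lss), the SREBP targets Insig1 and Stard4, and the fatty acid enzyme Acaca. The 5 were Mvd, Fdps, Insig2, Fads1 and Abcg1. After Benjamini-Hochberg adjustment over the array limma called 0 probe sets higher and 0 lower of 16661 (0% in each direction), so no member passed, with adjusted p from 0.537 for Sqle to 1.00. At an unadjusted p under 0.05 there were 8 members lower (Sqle, Cyp51, Stard4, Msmo1, Insig1, Fdft1, Lss and Hsd17b7), to be read against 2.96% of all probe sets, and 2 higher (Mvd and Insig2), against 3.58%. By the design text's rule, a change past 2-fold in the group means, there were 0 members lower (0.132% of all probe sets) and 0 higher (0.144%), with Sqle and Cyp51 nearest to it.

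Among the sterol enzymes Sqle and Cyp51 had the most negative log2 differences. Sqle, squalene epoxidase and a rate-controlling enzyme of the route (probe set 6830761), had log2 values of 7.54 and 7.38 in tumour-challenged samples, against 8.71, 8.35 and 8.32 in controls. The arrays of the groups were 0.78 apart at their nearest. The log2 difference was -0.999 ± 0.15 (SE), with a 95% interval of -1.40 to -0.60, so the tumour-challenged mean was 50.04% of the control mean on the linear scale. Among all 16661 probe sets this was the difference at place 23 from the lowest. Cyp51, lanosterol demethylase (probe set 6935927), had log2 values of 7.76 and 7.49 in tumour-challenged samples, against 8.88, 8.44 and 8.41 in controls. Its groups were separated by 0.65, and the log2 difference was -0.95 ± 0.19 (SE), interval -1.46 to -0.44, at place 28 from the lowest. Neither passed after adjustment across the array, with limma adjusted p of 0.537 for Sqle and 0.557 for Cyp51.

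**Figure D1:**
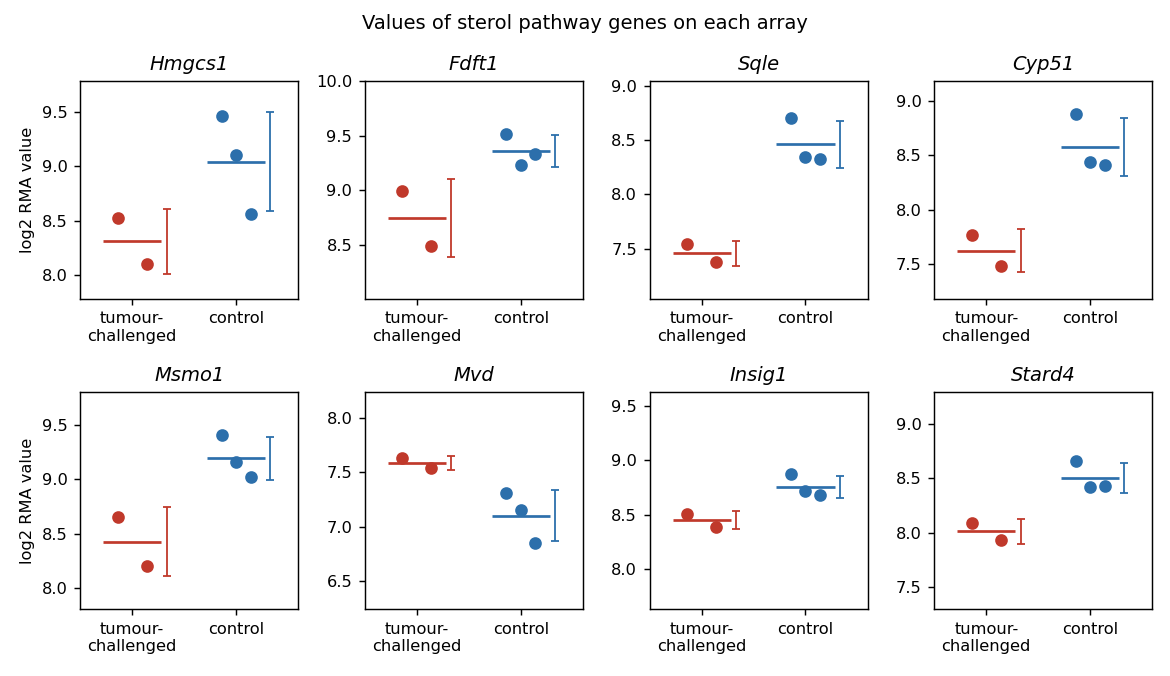
Log2 RMA values (vertical axes, each spanning 2 log2 units) of 8 sterol pathway genes, with tumour-challenged arrays in red and control arrays in blue. Points are arrays, horizontal lines group means and bars 1 SD (n = 2 and n = 3). For Mvd both tumour-challenged arrays lie above all controls, and for the other 7 genes they lie below all controls.

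The arrays were separate and lower for Msmo1, Fdft1 and Hmgcs1 too. Msmo1, the methylsterol oxidase that acts after Cyp51 (probe set 6982921), had log2 values of 8.65 and 8.20 in tumour-challenged samples, against 9.40, 9.16 and 9.02 in controls, a log2 difference of -0.77 ± 0.19 (SE). Fdft1, squalene synthase (probe set 6825302), had log2 values of 9.00 and 8.49 in tumour-challenged samples, against 9.52, 9.23 and 9.33 in controls, a log2 difference of -0.62 ± 0.19 (SE). In both genes every tumour-challenged array was below every control array. The size rested partly on tumour-challenged replicate 2: without it the log2 difference was -0.54 for Msmo1 and -0.36 for Fdft1. Hmgcs1, the cytosolic synthase that makes HMG-CoA and whose window above holds the sterol element's letters (probe set 7005797), had log2 values of 8.52 and 8.10 in tumour-challenged samples, against 9.47, 9.10 and 8.56 in controls. Control replicate 3 was only 0.04 above the nearer tumour-challenged array, and the interval of the log2 difference, -0.73 ± 0.31 (SE), ran from -1.57 to 0.11. Limma adjusted p was 0.648 for Msmo1, 0.698 for Fdft1 and 0.793 for Hmgcs1.

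Hsd17b7, the ketosteroid reductase of the demethylation complex, and Lss, which closes squalene epoxide into lanosterol, were separate in the same direction, at or near background. Hsd17b7 had log2 values of 6.67 and 6.57 in tumour-challenged samples, against 7.28, 7.19 and 6.80 in controls, a log2 difference of -0.48 ± 0.17 (SE). Its tumour-challenged mean was at background, so the size of this difference is uncertain. Lss was at background in both groups, with a log2 difference of -0.26 ± 0.09 (SE).

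Of the 15 measured sterol enzymes 5 had a positive log2 difference, and the arrays were separate for Mvd and Fdps among them. Mvd, which decarboxylates mevalonate diphosphate (probe set 6985925), had log2 values of 7.63 and 7.54 in tumour-challenged samples, against 7.31, 7.15 and 6.85 in controls, a log2 difference of 0.48 ± 0.15 (SE) with the arrays separate in the higher direction. Its limma adjusted p was 0.717. Fdps, farnesyl diphosphate synthase, was separate and higher too with a log2 difference of 0.34 ± 0.13 (SE), but lay at background in both groups. Ebp, the sterol isomerase, had log2 values of 7.71 and 7.07 in tumour-challenged samples, against 7.10, 7.10 and 6.59 in controls, so its log2 difference of 0.46 ± 0.27 (SE) came with overlapping arrays. The groups also overlapped for Mvk, Pmvk, Nsdhl, Sc5d and Dhcr7, whose log2 differences lay between -0.24 and 0.08. For Nsdhl, a decarboxylase of the demethylation complex, the interval ran from -1.18 to 1.34 because the control arrays spread from 7.26 to 8.68, so a change as large as that of Sqle was not detectable.

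**Figure D2:**
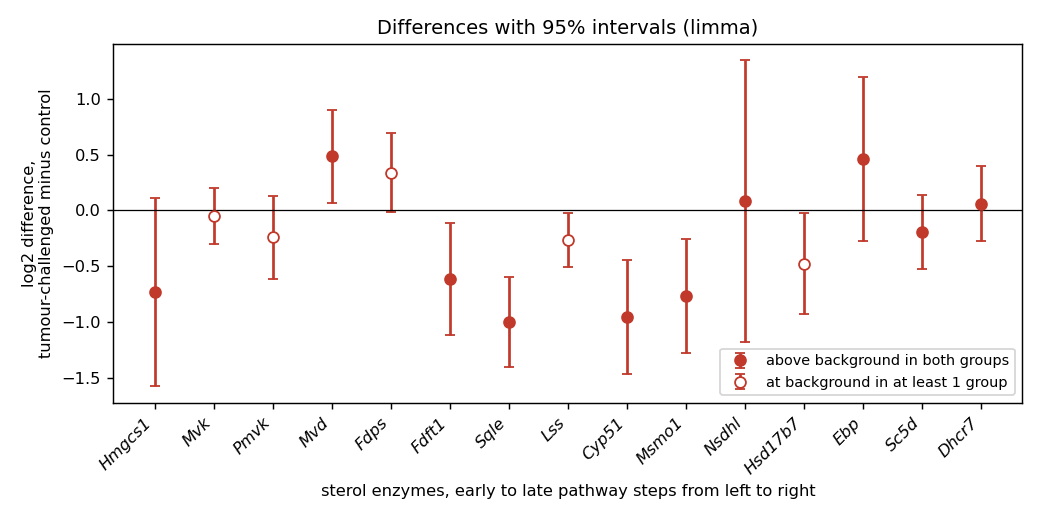
Log2 difference, tumour-challenged minus control (vertical axis), of the 15 measured sterol enzymes from early to late steps of the route, with 95% limma intervals. Filled points are above background in both groups and open points are not. The points of 10 enzymes lie below 0, while Mvd, Fdps, Nsdhl, Ebp and Dhcr7 lie above it.

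As a class, 10 of the 15 measured sterol enzymes had a negative log2 difference. The arrays were separate for 7 lower (7.83% of all probe sets) and 2 higher (11.2%). The median log2 difference was -0.24, against 0.02 over all probe sets. Without control replicate 1 that median was -0.14. Among the 10 enzymes above background in both groups the median was -0.40, but they were split. Of these, 6 differences were negative and 4 positive, with 5 separate lower and 1 higher. The class median did not set the groups apart cleanly: relative to the control mean it was -0.18 and -0.25 on the tumour-challenged arrays, against 0.19, 0.005 and -0.18 on the control arrays. Control replicate 3 thus sat at the level of tumour-challenged replicate 1 for the class as a whole, although not for Sqle, Cyp51, Msmo1 or Fdft1.

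Among the regulators of the sterol response, Insig1 and Stard4 were lower with separate arrays and Insig2 was higher. Insig1, which is itself switched on by SREBP (probe set 6929510), had log2 values of 8.51 and 8.39 in tumour-challenged samples, against 8.87, 8.72 and 8.68 in controls, separate and lower by a log2 difference of -0.31 ± 0.09 (SE). Stard4, a cytosolic sterol carrier and SREBP2 target (probe set 6864444), had log2 values of 8.09 and 7.93 in tumour-challenged samples, against 8.66, 8.42 and 8.43 in controls, also separate. Its log2 difference of -0.49 ± 0.11 (SE) had an interval of -0.78 to -0.20. Insig2, a paralog of Insig1 that is not known as an SREBP target, was separate in the other direction, with log2 values of 7.83 and 7.63 in tumour-challenged samples, against 7.56, 7.42 and 7.40 in controls, and a log2 difference of 0.27 ± 0.09 (SE). Limma adjusted p was 0.691, 0.62 and 0.728 for the 3 genes in this order.

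The transcripts of the factors themselves overlapped between the groups. Srebf2 had log2 values of 9.20 and 8.76 in tumour-challenged samples, against 9.19, 9.15 and 8.56 in controls, a log2 difference of 0.02 ± 0.26 (SE). That interval, -0.69 to 0.72, includes a difference as large as that of Fdft1, and the sign of the difference turned under median centring (-0.01) and quantile normalization (-0.07). Scap had log2 values of 7.76 and 7.59 in tumour-challenged samples, against 7.61, 7.59 and 7.34 in controls, with a log2 difference of 0.16 ± 0.12 (SE). Srebf1 stood at 7.22 on control replicate 2 and at exactly 7.20 on the other 4 arrays. Exactly equal values on 2 or more arrays occur in 19.8% of all probe sets, so its narrow spread is no measure of its precision.

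**Figure D3:**
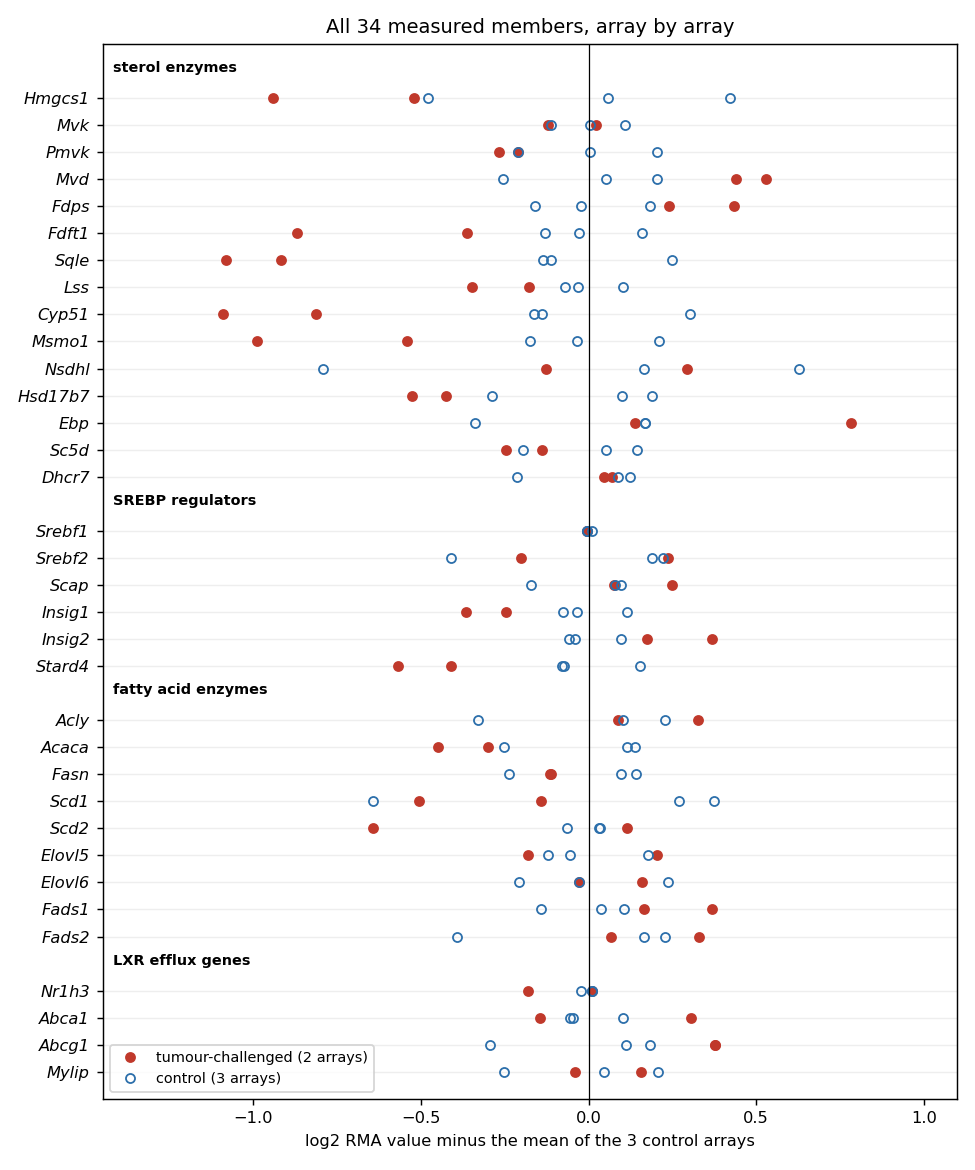
All 34 measured members, with each array's log2 value minus the mean of the control arrays on the horizontal axis. Filled red points are the 2 tumour-challenged arrays and open blue points the 3 control arrays. Red points stand left of all blue points for 10 genes, 7 of them sterol enzymes, and right of them for 5.

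Fatty acid synthesis genes showed no common direction. Acaca, acetyl-CoA carboxylase (probe set 6783063), had log2 values of 7.33 and 7.18 in tumour-challenged samples, against 7.77, 7.38 and 7.74 in controls, separate by only 0.05, and a log2 difference of -0.37 ± 0.15 (SE). Fads1, a desaturase of polyunsaturated fatty acids, was separate and higher, with log2 values of 6.82 and 6.62 in tumour-challenged samples, against 6.56, 6.49 and 6.31 in controls, and a log2 difference of 0.27 ± 0.11 (SE), but at background in both groups. The other 7 overlapped. Scd1, the stearoyl-CoA desaturase, had log2 values of 8.50 and 8.86 in tumour-challenged samples, against 8.36, 9.37 and 9.27 in controls, so control replicate 1 lay below both tumour-challenged arrays and the other controls above them. Its interval, -1.31 to 0.66, includes a difference as large as that of Sqle. Leaving out 1 array put its log2 difference between -0.64, without control replicate 1, and -0.14, without control replicate 2 or tumour-challenged replicate 1.

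Fasn, fatty acid synthase and the classic SREBP1 target, had log2 values of 7.35 and 7.35 in tumour-challenged samples, against 7.56, 7.60 and 7.23 in controls, and its log2 difference was -0.11 ± 0.14 (SE). Acly, which supplies cytosolic acetyl-CoA to both routes, had log2 values of 8.82 and 8.58 in tumour-challenged samples, against 8.72, 8.59 and 8.16 in controls, a log2 difference of 0.21 ± 0.20 (SE) that was 0.04 without control replicate 3. Elovl5, an elongase of polyunsaturated fatty acids, had log2 values of 9.45 and 9.06 in tumour-challenged samples, against 9.42, 9.19 and 9.12 in controls. Fads2, Elovl6 and Scd2 were at background in both groups. Fads2, a desaturase of polyunsaturated fatty acids, had log2 values of 6.29 and 6.56 in tumour-challenged samples, against 6.46, 6.39 and 5.83 in controls, and its log2 difference of 0.20 ± 0.23 (SE) was 0.0011 without control replicate 3. Scd2, a paralog of Scd1, had log2 values of 6.93 and 6.17 in tumour-challenged samples, against 6.85, 6.75 and 6.85 in controls, and its log2 difference of -0.26 ± 0.24 (SE) was 0.12 without tumour-challenged replicate 2. That of Elovl6 was 0.06. Over the 9 fatty acid enzymes 4 differences were negative and 5 positive, with a median of 0.01 that ran from -0.11 to 0.12 without 1 array.

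In the efflux class Abcg1 alone separated the groups. This exporter of cholesterol to HDL (probe set 6849766) had log2 values of 8.54 and 8.54 in tumour-challenged samples, against 8.28, 8.35 and 7.87 in controls, a log2 difference of 0.38 ± 0.17 (SE) in the higher direction and a limma adjusted p of 0.799. The tumour-challenged values of Abcg1 were exactly equal. Without control replicate 3 its log2 difference was 0.23. Abca1, which loads cholesterol onto apolipoprotein A1, had log2 values of 8.47 and 8.02 in tumour-challenged samples, against 8.11, 8.27 and 8.12 in controls, and Mylip, a ubiquitin ligase induced by LXR, had log2 values of 9.14 and 8.95 in tumour-challenged samples, against 9.03, 9.19 and 8.73 in controls. Both overlapped, and both turned sign under quantile normalization (-0.03 for each). Nr1h3, the gene of LXR alpha, was at background in both groups, with log2 values of 6.46 and 6.65 in tumour-challenged samples, against 6.65, 6.62 and 6.65 in controls and a log2 difference of -0.09 ± 0.08 (SE).

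Lists of pathway neighbours had no negative median. Their counts of separate arrays are to be read against 11.2% of all probe sets higher and 7.83% lower. Of the 14 measured genes among 18 others of sterol synthesis and uptake, the arrays were separate for 1 higher and 0 lower and the median log2 difference was 0.04. Lbr, which has the sterol reductase activity that acts after Cyp51, was the 1 gene with separate arrays and had a log2 difference of 0.38 ± 0.17 (SE), and Lrp1, a lipoprotein receptor, 0.52 ± 0.29. Tmem97, a sterol-regulated membrane protein, had a log2 difference of -0.56 ± 0.37 but lay at background in both groups.

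Among 21 other fatty acid synthesis genes 2 were separate and higher and 1 separate and lower, with a median log2 difference of 0.08. Those with the largest differences were Idh1 (0.58 ± 0.34, SE) and Pgd (0.50 ± 0.39), which supply NADPH, and the elongase Elovl7 (0.28 ± 0.19), all with overlapping arrays. Of 15 other genes of cholesterol handling 12 had a positive log2 difference and the median was 0.19. Cd36, a scavenger receptor for lipids, was the 1 gene with separate arrays, with log2 values of 10.02 and 9.88 in tumour-challenged samples, against 10.33, 10.15 and 10.34 in controls. Apoe (0.46 ± 0.49) and the HDL receptor Scarb1 (0.29 ± 0.22) overlapped. Of 17 fatty acid oxidation genes 13 had a positive log2 difference, with 5 separate higher and 1 lower and a median of 0.18. Over all probe sets 11.2% were separate and higher and 7.83% separate and lower. Acaa2, the mitochondrial thiolase (0.53 ± 0.24, SE), Etfb, an electron transfer flavoprotein subunit (0.40 ± 0.32), and Acadvl, a long-chain acyl-CoA dehydrogenase (0.35 ± 0.14) had the largest differences. By limma none of these neighbours passed after adjustment across the array, and at most 2 of any of these lists had an unadjusted p under 0.05 in 1 direction. Over all probe sets that share was 3.58% higher and 2.96% lower.

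Markers of other cells also differed between these arrays. For comparison, 7.83% of all probe sets were separate and lower and 11.2% separate and higher. Alveolar macrophages handle much lipid, and of their 13 measured markers 10 had a negative log2 difference and 7 were separate and lower, with a median of -0.16. Lpl, lipoprotein lipase, had log2 values of 8.59 and 8.14 in tumour-challenged samples, against 9.36, 9.24 and 9.01 in controls, and the receptor tyrosine kinase gene Axl had 7.48 and 7.52 in tumour-challenged samples, against 8.44, 8.14 and 7.94 in controls. Others of that list, Chil3, Siglecf and Pparg, overlapped. The list's summed linear level was 6395 to 7919 in tumour-challenged samples and 7337 to 7674 in controls, and no marker was at background in both groups. That sum mainly follows Chil3, by far the brightest of the list. Chil3 had log2 values of 12.31 and 11.82 in tumour-challenged samples, against 11.98, 11.98 and 11.95 in controls. All 10 B-cell markers were lower on average and 7 were separate (median log2 difference -0.44, summed level 1560 to 1568 in tumour-challenged samples and 1980 to 2453 in controls, Vpreb3 at background in both). Lung epithelial cells, which make surfactant lipid, ran the other way, with 14 of 15 markers positive and a median of 0.37. Only 4 were separate and higher. Relative to the control mean the list median was 0.39 and 0.36 on the tumour-challenged arrays, but 0.49 on control replicate 2. Summed levels were 10166 to 10857 in tumour-challenged samples and 6248 to 11268 in controls, no marker being at background in both groups. All 6 erythroid markers had a positive log2 difference and 3 were separate and higher (median 0.34, summed level 699 to 746 in tumour-challenged samples and 443 to 536 in controls), with 3 at background in both groups. Markers of dendritic, T and NK, endothelial and fibroblast cells had medians between -0.10 and 0.05, but single markers differed in both directions. Of 9 dendritic cell markers 3 were separate and lower and 1 was separate and higher. Flt3, a receptor of dendritic cells and progenitors, had log2 values of 9.51 and 7.99 in tumour-challenged samples, against 7.53, 7.65 and 7.25 in controls. Clec9a, a lectin of cross-presenting dendritic cells, had log2 values of 7.44 and 6.69 in tumour-challenged samples, against 8.11, 8.17 and 8.44 in controls. Of 10 T and NK cell markers 2 were separate and lower, among them Gzmb, granzyme B, with a log2 difference of -0.61, and 1 was separate and higher. The part of these cells in the values of the sterol genes was not tested.

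**Figure D4:**
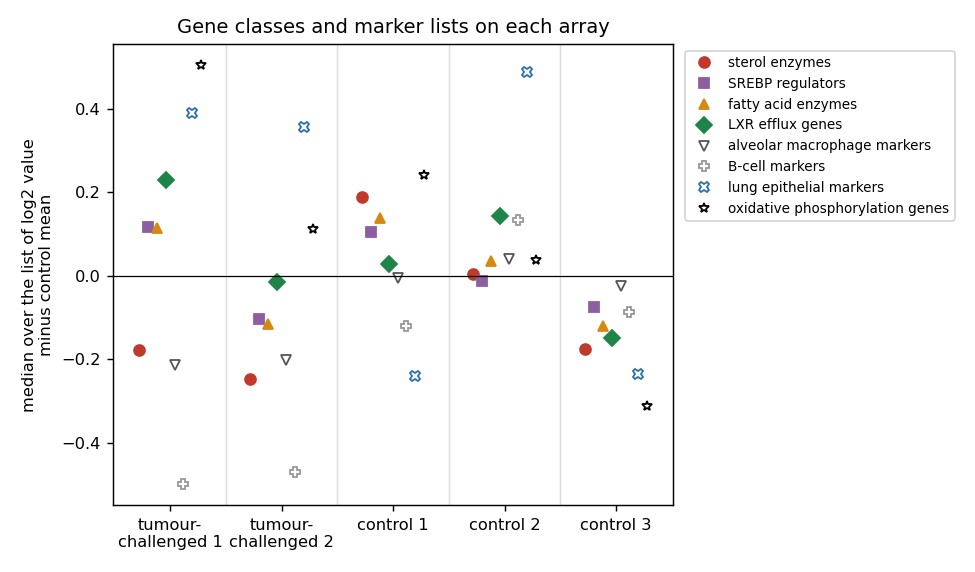
Median over each list of the log2 value minus the control mean (vertical axis) on each of the 5 arrays, with the 4 member classes filled and 4 comparison lists open. Sterol enzymes are at -0.18 and -0.25 on the tumour-challenged arrays, against 0.19, 0.005 and -0.18 on the control arrays, and oxidative phosphorylation genes are highest on tumour-challenged replicate 1 and lowest on control replicate 3.

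Genes of oxidative phosphorylation had higher means in tumour-challenged samples in all 17 measured members (median log2 difference 0.33). Over all probe sets 9597 of 16661 had a positive log2 difference. The groups overlapped for 14 of the 17. The arrays were separate for 3 higher (11.2% of all probe sets) and 0 lower (7.83%). The respiratory chain subunit genes Ndufa9 (0.47 ± 0.29, SE), Ndufv1 (0.44 ± 0.31) and Sdhc (0.42 ± 0.26) had the largest log2 differences, with separate arrays for Sdhc. Relative to the control mean the list median was 0.50 and 0.11 on the tumour-challenged arrays, against 0.24, 0.04 and -0.31 on the control arrays. Without control replicate 3, the lowest array of that list, the log2 differences of Sqle and Cyp51 were -1.07 and -1.03, that of Hmgcs1 was -0.97 and that of Mvd was 0.36. RNA quality as a source of the members' values was not tested.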

How the data were processed

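RNA of sorted CD11b+Gr1+ lung cells was amplified with a picogram whole-transcript kit and labelled with biotin, per the labels' protocols. The values used are log2 expression values deposited by the authors, 1 per array for 16661 probe sets, from RMA according to the submitters' processing notes, which also name genome build mm8 without a role. The sources used here give neither the version of RMA nor a filter. Genes were named from the platform annotation: 14939 probe sets carry 1 symbol, 989 several and 733 none here. The arrays have no read depth, and their number (5) limits precision.

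Differences are tumour-challenged minus control from limma 3.58.1 (R 4.3.3) on all probe sets, two-sided, adjusted by Benjamini-Hochberg over the 16661 probe sets, with 0.05 as threshold. It has 3 residual and 1.36 prior degrees of freedom. SE and 95% intervals are moderated. Separate arrays means that both tumour-challenged values lie beyond all control values. Members given array by array were every measured regulator and up to 6 with the largest difference in each other class. Of each pathway list the 3 genes with the largest difference were named. Hsd17b7, Lss, Fdps, Ebp, Nsdhl, Fasn, Elovl5 and the markers named for other cells were added after their values were seen. The members and lists were chosen with earlier results of these data known, so no p is adjusted over the list. The code was tested on simulated data. Promoter windows came from RefSeq (GRCm38.p6). Alternatives were median centring, quantile normalization, trended robust variances, a filter on the dimmest 25%, the replicate number as a block, and leaving out each array.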

Additional observations from a re-analysis of the deposited data

How the results depend on the processing

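None of the 34 members passed limma's adjusted threshold under any alternative run. Over all probe sets the counts stayed at 0 except with each array centred on its median, where 1 was higher (Ltf, lactoferrin). Lower values of Sqle, Cyp51, Msmo1, Hmgcs1, Fdft1, Stard4 and Insig1 kept their sign throughout. Without 1 array the log2 difference ran from -1.08 to -0.88 for Sqle, from -1.09 to -0.80 for Cyp51 and from -0.97 to -0.52 for Hmgcs1. Members past 2-fold lower numbered 1 with median centring (0.162% of all probe sets), 2 with quantile normalization (0.168%) and 2 with the replicate block (0.138%). Without 1 array they numbered 0 to 2, against 0.138% to 0.45% of all probe sets. That share was highest without tumour-challenged replicate 1. Members with separate arrays numbered 11 to 14 lower and 5 to 12 higher without 1 array, but over all probe sets the share was then 11.1% to 25.5% lower and 14.1% to 37.3% higher, against 7.83% and 11.2% with all arrays. The 14 lower arose without tumour-challenged replicate 1 (25.5% of all probe sets) and the 12 higher without tumour-challenged replicate 2 (37.3%). The median of the sterol enzymes ran from -0.31 to -0.14, the smallest without control replicate 1. The median of the LXR efflux genes ran from -0.014 to 0.23 without 1 array, the highest without tumour-challenged replicate 2.

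Without 1 array Scap ran from 0.075 to 0.25, Insig2 from 0.17 to 0.37 and Fads1 from 0.17 to 0.37, with the lowest values without tumour-challenged replicate 1 (for Scap also without control replicate 3), and the regulators' median ran from -0.10 to 0.12. Small differences turned sign. Srebf2 was at -0.012 with median centring, -0.075 with quantile normalization and -0.19 with the replicate block, and ran from -0.20 to 0.24 without 1 array. Abca1 was at -0.026 with quantile normalization and ran from -0.14 to 0.30, Mylip was at -0.030 with quantile normalization and -0.068 with the block and ran from -0.068 to 0.16, Scd2 from -0.64 to 0.12 and Nr1h3 from -0.18 to 0.011. The cause was not tested. Replicate numbers are not stated to pair samples. Deviations from the group means correlated at 0.29 for replicates 1 and 0.22 for replicates 2. With 2 tumour-challenged arrays these deviations mirror each other, so control replicate 2 correlated at -0.22 with tumour-challenged replicate 1. The 2 values are thus not independent and cannot decide whether samples pair. With the block no member passed either, and control replicate 3, which has no partner, drops out of the contrast. Each measured member had 1 probe set, so averaging probe sets could not be run. Dimness limits Lss, Fdps, Mvk, Pmvk, Scd2, Elovl6, Fads1, Fads2 and Nr1h3, which lay at background in both groups.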
